A study of Mus musculus with 6 samples.

Results

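Ribosomal small-subunit assembly was followed through the mRNAs of 40 genes, which encode the small-subunit processome, the proteins of the 2 classes of small nucleolar ribonucleoprotein particles (snoRNPs) and the factors that finish the 40S subunit. The genes were chosen by symbol, and all 40 were found among the 19233 genes of the deposited table. The RNA was that of polysomes, mRNAs loaded with several ribosomes at once, and came from RAW264.7, an established mouse macrophage-like line. Cells titled M2 had received 500 nM BMH-21, a compound known to block RNA polymerase I, or DMSO as the vehicle, and each group had 3 libraries. Per the labels, treatment lasted 24 h and began 24 h after polarization. The protocol in the labels is worded for primary marrow macrophages, polarized by IL-4 or by interferon gamma plus LPS, so the agent used on the line itself is not certain. Both groups carry M2 in their titles, and no genetic change is named for either.

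In the nucleolus, RNA polymerase I transcribes a long precursor of ribosomal RNA. The processome forms on this precursor while it is being made: the UTP-A complex binds first, the UTP-B complex and the U3 snoRNP follow, and U3 pairs with the precursor so that the small-subunit RNA can fold and be cut free. Box C/D snoRNPs guide ribose methylation and H/ACA snoRNPs guide pseudouridylation of the same RNA. Late factors then accompany the pre-40S particle to the cytoplasm, where the last cleavage is made. Genes of this programme are well-known targets of MYC and are active in growing cells.

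Before any comparison, libraries were checked against markers of macrophages and of other cell types. All 10 macrophage markers were measured in all libraries, in FPKM (fragments counted per unit of transcript length and of sequencing depth), though several differed between the groups. Lyz2 was at 9210 to 9634 FPKM with DMSO and 16726 to 17915 FPKM with BMH-21, Tyrobp at 684 to 745 and 1187 to 1287 FPKM, and Itgam at 8.11 to 8.70 and 11.4 to 11.6 FPKM. Adgre1 went the other way, from 39.3 to 41.9 FPKM with DMSO to 22.3 to 23.3 FPKM with BMH-21, while Cd68 was at 788 to 816 and 870 to 899 FPKM. Several transcripts typical of epithelial cells were present above trace levels in 4 of the 6 libraries. Krt18, an epithelial keratin, was at 0, 0.0644 and 5.47 FPKM in DMSO replicates 1, 2 and 3 and at 8.89, 6.41 and 8.09 FPKM in BMH-21 replicates 1, 2 and 3. Its partner Krt8 was at 0, 0.0236 and 3.27 FPKM with DMSO and at 4.22, 3.60 and 3.78 FPKM with BMH-21. Epcam, an epithelial adhesion molecule, was at 0, 0 and 0.483 FPKM with DMSO and at 0.388, 0.484 and 0.635 FPKM with BMH-21. DMSO replicate 3 thus resembled the BMH-21 libraries in these genes and differed from DMSO replicates 1 and 2. Of 12 further epithelial genes, chosen after these values were seen, 8 (Cdh1, Krt19, Krt14, Cldn3, Cldn4, Cldn7, Elf3 and Esrp1) were at 0 in both DMSO replicates 1 and 2. Among those 8, Cldn4 reached 0.998 FPKM in DMSO replicate 3 and 0.610 to 1.83 FPKM with BMH-21, whereas Krt14 and Cldn3 were at 0 in DMSO replicate 3. St14, from the same 12, did not share this pattern, at 4.54, 4.48 and 4.24 FPKM with DMSO and 4.198, 3.72 and 3.80 FPKM with BMH-21. The summed level of the 9 measured markers of all other cell types was 0.482, 0.996 and 9.75 FPKM with DMSO and 11.1 to 14.3 FPKM with BMH-21. Krt18, Krt8 and Epcam are among those 9 and made up most of the sum in DMSO replicate 3 and with BMH-21. Endothelial and B cell markers (Pecam1, Cdh5 and Cd79a) stayed at 0.0608 FPKM or less. The calls and fold changes of the members were therefore also computed with DMSO replicate 3 as the only DMSO library, a comparison chosen after seeing the data, in which the lone sample is assumed to vary like the BMH-21 group.

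**Figure D1:**
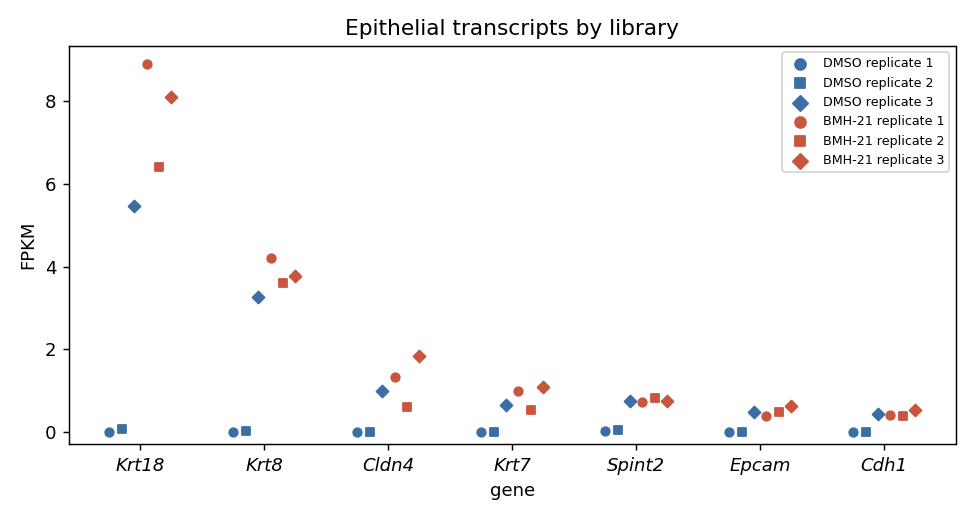
Levels of 7 epithelial genes (x axis) in FPKM (y axis, linear) in each library, DMSO in blue and BMH-21 in red, with a symbol for each replicate. Krt18 stood at 5.47 FPKM in DMSO replicate 3 and at 6.41 to 8.89 FPKM in the BMH-21 libraries, and at 0.0644 FPKM or less in the other DMSO libraries.

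On the scale of the deposited values, most 40S assembly factors had lower polysome FPKM after BMH-21. Of the 39 members that passed the filter of at least 1 FPKM in at least 3 libraries, limma called 31 lower and 1 higher, and 7 did not pass (adjusted p under 0.05 over all tested genes). Among all 9748 tested genes 58.4% were called lower and 19.9% higher, 78.3% in all, so a share of lower calls is high in any gene list here. The median log2 fold change of the members was −0.44, against −0.23 for all tested genes, a gap of −0.21, and 26 of the 39 lay below the all-gene median. Fold changes are differences of log2(FPKM + 1) from DMSO to BMH-21, a scale that makes changes of weakly expressed genes look smaller. Every BMH-21 library lay below every DMSO library for 33 members, where 59.5% of all tested genes did so, and above for 3 members, where 20.3% did so, which makes 79.8% of all tested genes without overlap. A fall of at least 2-fold on that log2(FPKM + 1) scale was called for 4 members, Utp3, Nop56, Nob1 and Utp14a, and for 5.24% of all tested genes. In plain FPKM the mean fell to a ratio of 0.5 or less for these and for Tcof1 (ratio 0.467) and Noc4l (0.476), where 10.7% of all tested genes were called with such a ratio.

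These counts rest in part on how libraries are scaled. Median-ratio scaling moved the median of all genes by 0.23 and gave 19 members lower and 8 higher, beside 3546 lower and 3643 higher among all genes (5690 lower and 1938 higher on the deposited scale). Quantile normalization moved it by 0.24 and gave 21 lower and 6 higher, beside 35.9% lower and 36.1% higher among all genes. Under all 4 normalizations, the deposited scale included, 18 members were called lower, as were 31.3% of all tested genes. These 18 were called lower in each of the 14 settings run, again beside 31.3% of all tested genes. They are Fbl, Nop56, Nop58, Dkc1, Wdr43, Nol11, Tbl3, Wdr3, Mphosph10, Utp3, Utp14a, Dcaf13, Noc4l, Nop14, Nob1, Ltv1, Nolc1 and Tcof1. With DMSO replicate 3 as the only DMSO library, 29 members were called lower and none higher, beside 51.2% lower and 16.3% higher among all genes, and the member median was −0.43, in a comparison where all 4 libraries held epithelial transcripts. A lower FPKM in the polysome fraction can stand for fewer mRNA molecules per cell, fewer of them on polysomes, or more of other mRNAs in the library. These cannot be told apart, because FPKM is a relative measure and no unfractionated RNA was used here.

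**Figure D2:**
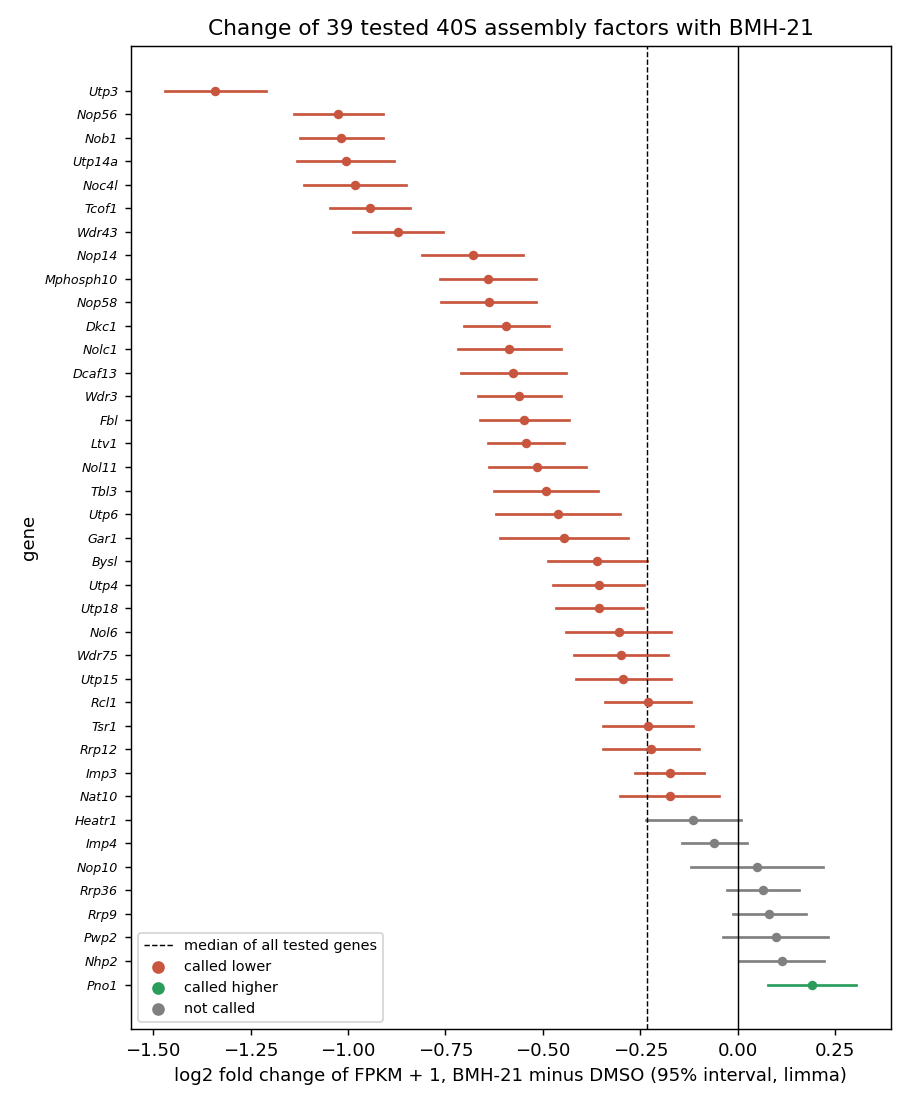
Log2 fold change of FPKM + 1 with its 95% interval from limma (x axis) for the 39 tested members (y axis), coloured by call on the deposited scale. Utp3 at −1.34 and Pno1 at 0.19 are the ends of the range, and the dashed line marks the median of all tested genes at −0.23. With median-ratio scaling that median moves to 0.00, and Imp3, Imp4, Nat10, Rcl1, Tsr1 and Heatr1 change sign.

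Levels spanned a wide range before treatment. In DMSO the highest member was Nhp2 at 381 ± 14 FPKM (SD, n = 3) and the lowest Utp20 at 0.813 ± 0.084 FPKM (SD, n = 3). Next came Imp3 at 172 ± 6.7, Fbl at 99.98 ± 6.2 and Gar1 at 92.3 ± 9.8 FPKM, which like Nhp2 encode small proteins. Fbl and Gar1 did not differ beyond their spread, since DMSO replicates of Fbl ran from 94.2 to 107 FPKM and those of Gar1 from 83.2 to 103 FPKM. Genes of large proteins stood lowest, with Heatr1 at 1.61, Rrp12 at 1.64, Pwp2 at 1.53 and Nat10 at 1.82 FPKM. Because these are long genes, low values still rest on many reads: the implied depth gave about 102 reads for Rrp12 in its lowest library and about 157 for Utp20. Those read numbers are estimates from the union of annotated exons.

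**Figure D3:**
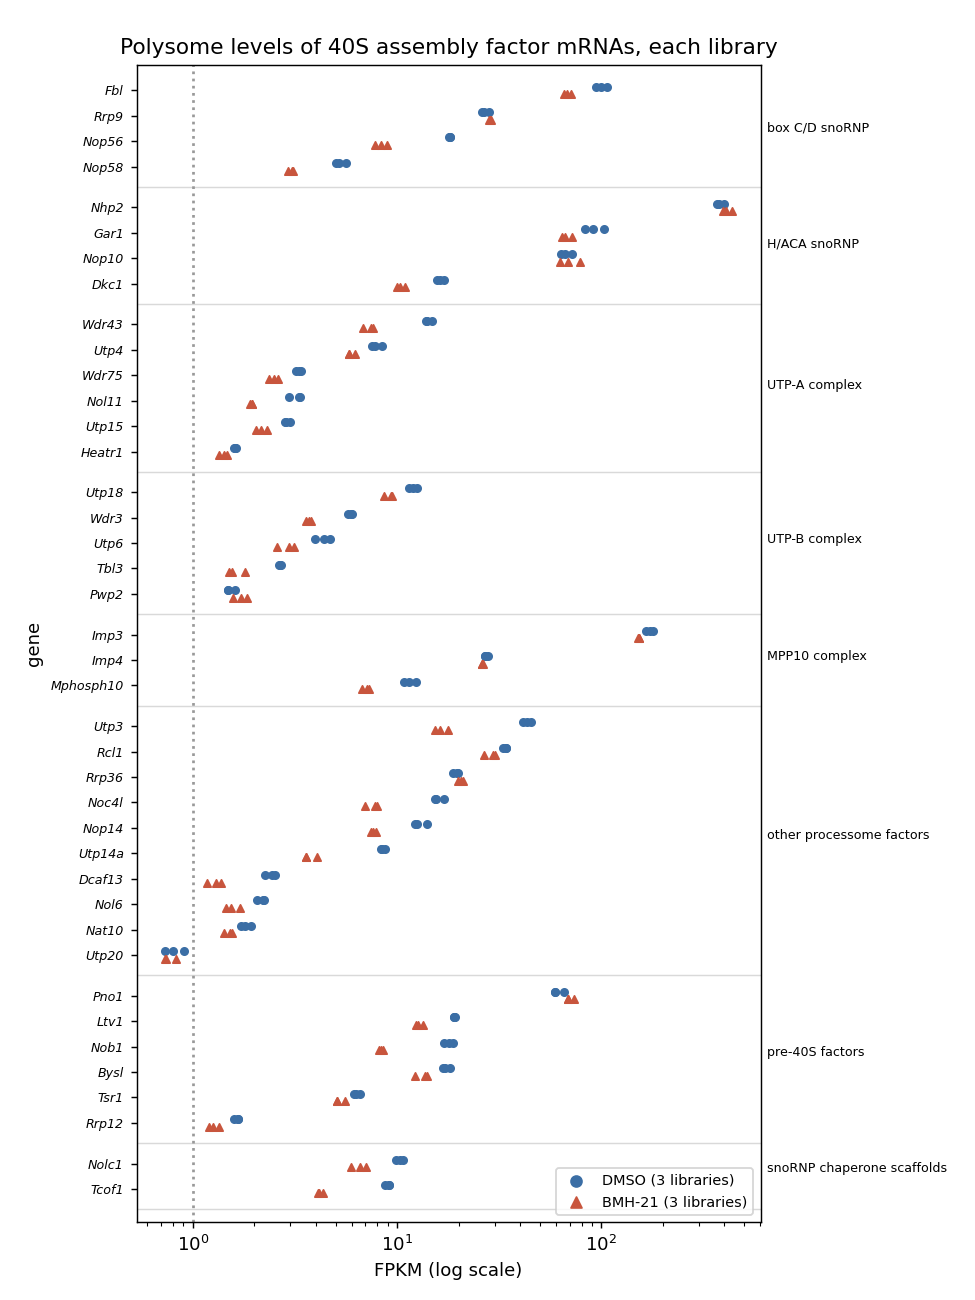
FPKM (x axis, log scale) of each of the 40 members in each library, DMSO as blue circles and BMH-21 as red triangles, grouped by role, with a dotted line at the filter of 1 FPKM. Utp3, Nop56, Nob1, Utp14a, Noc4l, Tcof1 and Wdr43 show the widest gaps between groups, and Utp20 is the member below the filter.

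Of the 4 box C/D snoRNP proteins among the members, Nop56, Nop58 and Fbl fell and Rrp9, the one particular to U3, did not pass. Snu13, a further core protein of every box C/D particle that is not a member, was called higher (0.18, limma adjusted p = 8.7e-04). Nop56, a scaffold protein of the particle, was at 17.9, 18.2 and 18.1 FPKM with DMSO and at 8.97, 8.38 and 7.80 FPKM with BMH-21. All BMH-21 libraries lay well below all DMSO libraries, and the log2 fold change was −1.02 ± 0.05 (SE, limma adjusted p = 5.9e-08). Nop58, its partner scaffold, went from 5.03, 5.62 and 5.19 to 3.06, 2.91 and 3.11 FPKM (−0.64 ± 0.05). Fbl (chromosome 7, 28169710 to 28179269), which encodes fibrillarin, the methyltransferase itself, went from 107, 94.2 and 99.2 to 65.5, 70.7 and 67.8 FPKM (−0.55 ± 0.05). Rrp9, which binds U3 alone, was at 28.1, 25.9 and 26.8 FPKM with DMSO and at 28.1, 28.9 and 28.5 FPKM with BMH-21, with BMH-21 replicate 1 only just above DMSO replicate 1 (0.08, limma adjusted p = 0.10). Rrp9 was called higher under median-ratio scaling (0.35), under quantile normalization (0.26) and when DMSO replicate 1 was left out (0.11). With column totals made equal its sign turned, without a call (−0.04). Summed over the 4 genes, the level was 150 ± 6.9 FPKM with DMSO and 108 ± 2.7 FPKM with BMH-21 (SD, n = 3, exact permutation p = 0.10, two-sided). That p is the smallest that 3 against 3 libraries allow.

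Among the H/ACA proteins the enzyme and 1 of its partners fell, and the other two did not pass. Dkc1 (chromosome X, 75095854 to 75109777), which encodes dyskerin, the pseudouridine synthase, was at 15.7, 16.9 and 16.2 FPKM with DMSO and at 10.97, 10.00 and 10.3 FPKM with BMH-21 (log2 fold change −0.59 ± 0.05, SE, limma adjusted p = 1.7e-06). Gar1, which joins the particle last and helps substrate turnover, went from 103, 91.0 and 83.2 to 63.8, 72.2 and 66.1 FPKM, with no overlap of the groups (−0.44 ± 0.07), but median-ratio scaling ended that call (−0.17). Nhp2, an RNA-binding core protein and the most abundant member, was at 397, 369 and 377 FPKM with DMSO and at 394, 437 and 407 FPKM with BMH-21. The groups overlapped, and the difference of 0.11 did not pass (limma adjusted p = 0.056). It was called higher without DMSO replicate 1 (0.14), without BMH-21 replicate 1 (0.15) and with median-ratio scaling (0.39). Its sign turned, without a call, with quantile normalization (−0.06) and with column totals made equal (−0.0085). Nop10, a very small core protein with a coding length of 192 bases, was at 66.5, 71.9 and 63.4 FPKM with DMSO. With BMH-21 it was at 62.7, 68.7 and 78.3 FPKM, also overlapping (0.05, limma adjusted p = 0.56, 95% interval −0.12 to 0.22). Median-ratio scaling called it higher (0.33), and column totals made equal turned its sign without a call (−0.07). The summed level of the 4 genes, most of which is Nhp2, was 557 ± 22 FPKM with DMSO and 560 ± 28 FPKM with BMH-21 (SD, n = 3, exact permutation p = 0.90).

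The UTP-A complex, which starts processome formation, had 5 of 6 members called lower, beside 58.4% of all tested genes, and Heatr1 not passing. Wdr43 (chromosome 17, 71615895 to 71659031) showed the widest gap, from 13.8, 14.8 and 13.9 to 7.48, 6.85 and 7.61 FPKM (log2 fold change −0.87 ± 0.05, SE, limma adjusted p = 1.8e-07). Nol11 went from 2.97, 3.34 and 3.30 to 1.96, 1.95 and 1.91 FPKM (−0.51). In both genes the lowest DMSO library lay far above the highest BMH-21 library. Utp4 (−0.36), Wdr75 (−0.30) and Utp15 (−0.29) were lower on the deposited scale, with calls lost under median-ratio scaling and quantile normalization, where Utp15 and Wdr75 turned to 0.01 under the latter. Heatr1, the largest UTP-A protein, was at 1.63, 1.58 and 1.61 FPKM with DMSO and at 1.47, 1.34 and 1.42 FPKM with BMH-21. Its groups did not overlap, but the difference of −0.11 did not pass (limma adjusted p = 0.080), and it was called higher with quantile normalization (0.14) but lower with column totals made equal (−0.19). The summed level of UTP-A was 33.1 ± 0.73 FPKM with DMSO and 21.3 ± 0.82 FPKM with BMH-21 (SD, n = 3, exact permutation p = 0.10).

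In the UTP-B complex, a scaffold built of WD-repeat proteins and Utp6, 4 of 5 members were called lower, beside 58.4% of all tested genes. Wdr3 was at 5.96, 6.002 and 5.76 FPKM with DMSO and at 3.79, 3.69 and 3.57 FPKM with BMH-21 (log2 fold change −0.56 ± 0.05, SE, limma adjusted p = 2.2e-06). Tbl3 went from 2.68, 2.70 and 2.64 to 1.80, 1.56 and 1.496 FPKM (−0.49), a fall beyond the spread of either group. Utp6 (−0.46) and Utp18 (−0.36) had smaller falls on the deposited scale. The Utp6 call was lost with quantile normalization (−0.13) and the Utp18 call with both median-ratio scaling (−0.10) and quantile normalization (−0.11). Pwp2, a founding subunit of the scaffold, was the exception, at 1.48, 1.61 and 1.495 FPKM with DMSO and 1.72, 1.57 and 1.84 FPKM with BMH-21. Its groups overlapped and its difference of 0.10 did not pass (limma adjusted p = 0.16), though median-ratio scaling (0.27) and quantile normalization (0.36) called it higher. The summed UTP-B level was 26.4 ± 0.95 and 19.0 ± 0.46 FPKM (SD, n = 3, exact permutation p = 0.10).

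The MPP10 complex, which holds U3 on the precursor, was split. Mphosph10, its scaffold, was at 10.8, 12.3 and 11.5 FPKM with DMSO and at 7.14, 7.27 and 6.73 FPKM with BMH-21 (log2 fold change −0.64 ± 0.05, SE, limma adjusted p = 2.5e-06). Imp3, which helps U3 pair with the precursor, was at 165, 173 and 179 FPKM with DMSO and at 153, 152 and 152 FPKM with BMH-21. The groups did not overlap and Imp3 was called lower at −0.17, but with median-ratio scaling it was called higher, at 0.10. Imp4, its partner, was at 27.9, 26.9 and 26.9 FPKM with DMSO and at 26.3, 26.1 and 26.0 FPKM with BMH-21. That difference of −0.06 did not pass (limma adjusted p = 0.17), and its sign turned with median-ratio scaling (0.21) and quantile normalization (0.12), which both called it higher, while column totals made equal called it lower (−0.18).

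The other processome factors held the largest fall of all members. Utp3 (chromosome 5, 88554462 to 88556090), the counterpart of yeast Sas10, was at 45.3, 43.0 and 41.3 FPKM with DMSO and at 16.3, 17.8 and 15.3 FPKM with BMH-21. Its BMH-21 mean was 0.381 of its DMSO mean, a log2 ratio of −1.39. As a difference of log2(FPKM + 1) the change was −1.34 ± 0.06 (SE, limma adjusted p = 2.2e-08), and 1.84% of all tested genes fell further. Utp14a (chromosome X, 48256862 to 48282453), an activator of the helicase that releases U3, went from 8.76, 8.45 and 8.33 to 3.57, 3.57 and 4.07 FPKM (−1.01 ± 0.06). Noc4l and Nop14 encode proteins that bind each other: Noc4l went from 16.9, 15.3 and 15.6 to 7.98, 7.82 and 6.96 FPKM (−0.98) and Nop14 from 12.2, 14.1 and 12.4 to 7.90, 7.43 and 7.66 FPKM (−0.68). In all 4 genes the groups lay far apart. Dcaf13, a WD-repeat protein, went from 2.25, 2.44 and 2.52 to 1.38, 1.30 and 1.18 FPKM (−0.58). Nol6 was called lower at −0.31, Rcl1 at −0.23 and Nat10, the acetyltransferase of the small-subunit RNA, at −0.17. Those 3 calls were lost with both median-ratio scaling and quantile normalization. Rcl1 and Nat10 turned to 0.04 and 0.00 under the first, and Nat10 to 0.09 under the second. The Nat10 call was also lost without DMSO replicate 2 (limma adjusted p = 0.061), without BMH-21 replicate 1 (0.056) and with DMSO replicate 3 alone (0.12). Rrp36 was at 19.8, 18.9 and 19.7 FPKM with DMSO and at 20.5, 20.9 and 19.9 FPKM with BMH-21. That difference of 0.07 did not pass (limma adjusted p = 0.17). Rrp36 was called higher with median-ratio scaling (0.33) and quantile normalization (0.29). With column totals made equal its sign turned, without a call (−0.05). Utp20, a very large helical-repeat protein under the filter, was at 0.802, 0.735 and 0.901 FPKM with DMSO and at 0.825, 0.730 and 0.740 FPKM with BMH-21, and the groups overlapped.

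The factors that complete the 40S subunit moved apart. Of 6, 5 were called lower and 1 higher, beside 58.4% and 19.9% of all tested genes. Nob1 (chromosome 8, 107412486 to 107425051), the endonuclease that makes the last cut of the small-subunit RNA, was at 17.98, 17.0 and 18.8 FPKM with DMSO and at 8.33, 8.52 and 8.16 FPKM with BMH-21 (log2 fold change −1.02 ± 0.05, SE, limma adjusted p = 3.7e-08). Pno1 (chromosome 11, 17203198 to 17211568), the RNA-binding partner that sits beside the Nob1 cleavage site, was at 59.0, 59.5 and 65.9 FPKM with DMSO and at 68.8, 73.1 and 68.8 FPKM with BMH-21. All BMH-21 libraries of Pno1 lay above all DMSO libraries (0.19 ± 0.05, limma adjusted p = 0.0058). The Pno1 call was lost with column totals made equal (0.07, limma adjusted p = 0.23) and with DMSO replicate 3 alone (0.09, limma adjusted p = 0.24). DMSO replicate 3, the DMSO library with epithelial transcripts, also had the highest Pno1 level of its group, and their part in the Pno1 difference was not tested. Ltv1, which is released when the particle matures in the cytoplasm, went from 19.1, 19.2 and 19.1 to 12.6, 12.4 and 13.4 FPKM (−0.54). Bysl, an early-binding pre-40S factor, went from 17.2, 18.2 and 16.7 to 14.1, 12.3 and 13.7 FPKM (−0.36), but median-ratio scaling ended that call (−0.10). Tsr1 (−0.23), which resembles a translational GTPase, and Rrp12 (−0.22), which serves nuclear export, were called lower on the deposited scale. Both calls were lost with median-ratio scaling and quantile normalization, Tsr1 at 0.01 and 0.09 and Rrp12 at −0.06 and 0.03, and the Rrp12 call also with DMSO replicate 3 alone (limma adjusted p = 0.080).

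Both nucleolar scaffold proteins that bind snoRNPs fell. Tcof1, which encodes treacle, the protein affected in Treacher Collins syndrome and a partner of RNA polymerase I, was at 9.09, 9.12 and 8.75 FPKM with DMSO and at 4.33, 4.13 and 4.12 FPKM with BMH-21 (log2 fold change −0.94 ± 0.05, SE, limma adjusted p = 4.7e-08). Nolc1, a phosphoprotein that chaperones snoRNPs, went from 10.7, 9.89 and 10.3 to 6.59, 5.98 and 7.06 FPKM (−0.59 ± 0.06). In neither gene did the groups overlap.

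Multiplying a library by 1 factor, as median-ratio scaling and equal totals do, leaves a ratio of 2 of its genes as it is, which quantile normalization does not. Each subunit was also set against the mean of its partners in the same complex, for 22 ratios over 5 complexes. None can fall below an exact permutation p of 0.10, and the smallest value adjusted over the 22 was 0.12. For each complex the largest shift in each direction is given. In the box C/D particle, the log2 ratio of Rrp9 to the mean of Fbl, Nop56 and Nop58 was −0.61 ± 0.01 with DMSO and 0.11 ± 0.02 with BMH-21 (SD, n = 3, exact permutation p = 0.10). That of Nop56 to its partners moved the other way, from −1.29 ± 0.09 to −1.99 ± 0.13. Fibrillarin mRNA, the most abundant of the 4, contributes most to both denominators. In the H/ACA particle Nhp2 went from 2.70 ± 0.09 to 3.07 ± 0.08 and Dkc1 from −3.47 ± 0.10 to −4.13 ± 0.14. In UTP-A, Heatr1 went from −1.97 ± 0.05 to −1.49 ± 0.04 and Wdr43 from 1.91 ± 0.07 to 1.39 ± 0.04. In UTP-B, Pwp2 went from −2.03 ± 0.03 to −1.34 ± 0.12 and Tbl3 from −1.15 ± 0.04 to −1.43 ± 0.19. Heatr1 and Pwp2 are the subunits of UTP-A and UTP-B that were not called lower. Utp4, Wdr75 and Utp15 of UTP-A and Utp18 of UTP-B were called lower and yet rose against their partners, by 0.31, 0.26, 0.25 and 0.16. The most abundant partner contributes most to each denominator: Nhp2 for Dkc1, Wdr43 for Heatr1, and Utp18 for Pwp2 and Tbl3. In the MPP10 complex Imp4 went from −1.75 ± 0.09 to −1.61 ± 0.003 and Mphosph10 from −3.11 ± 0.08 to −3.66 ± 0.06. The ratios of Nop10, Nol11, Utp6 and Imp3 overlapped between the groups.

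**Figure D4:**
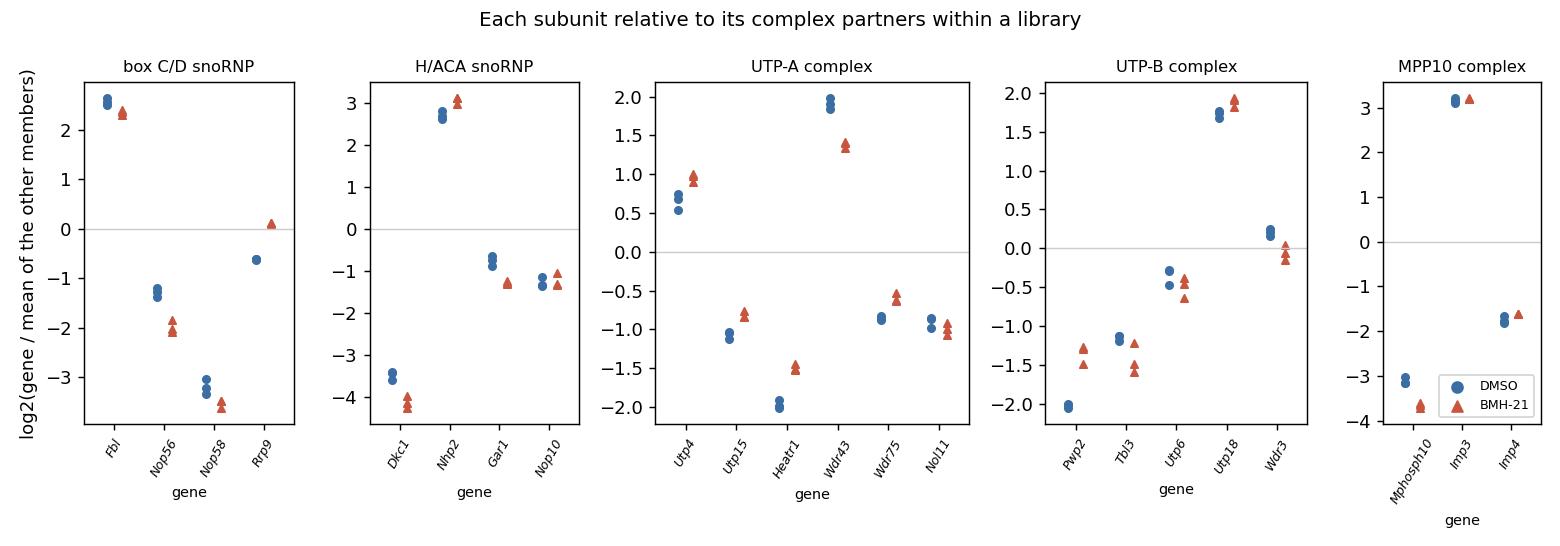
Log2 ratio of each subunit to the mean of the other members of its complex (y axis, separate scale in each panel) in each DMSO library (blue circles) and BMH-21 library (red triangles), for 5 complexes. Rrp9 had means of −0.61 and 0.11 and Nop56 of −1.29 and −1.99, while Nop10 overlaps between the groups.

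Other genes of small-subunit assembly, from a list of processome helicases, snoRNP assembly factors, kinases and methyltransferases, were mostly lower too. Of 39 tested, 32 were called lower and 3 higher, with a median of −0.43, beside 58.4% lower and 19.9% higher among all tested genes. Median-ratio scaling gave 22 lower and 8 higher, beside 36.4% lower and 37.4% higher among all tested genes. Ruvbl2 and Ruvbl1, the paired ATPases that assemble snoRNPs, went from 49.5 to 19.1 FPKM (−1.33) and from 26.8 to 12.9 FPKM (−0.99). Wdr46, a processome scaffold, went from 20.5 to 8.17 FPKM and Ddx49, an RNA helicase, from 20.4 to 9.34 FPKM. Called higher in this list were Snu13, the box C/D protein that binds first (61.6 to 70.1 FPKM, 0.18), Tsr2 (0.22) and Rrp7a (0.15). Tsr2 escorts a small-subunit protein. All 3 calls of higher were lost with column totals made equal (0.06, 0.11 and 0.04). Factors for the large subunit had 49 of 57 called lower and 7 higher, with a median of −0.52 that was −0.27 (39 lower) with median-ratio scaling and −0.24 (36 lower) with quantile normalization, Nop53 (−1.16) and Pes1 (−0.96) being examples. The 40S ribosomal proteins, which these factors assemble, had 26 of 32 called higher and 2 lower, with a median of 0.42 that lay between 0.24 and 0.70 on the other scales. Rps19 went from 69.7 to 127 FPKM, while Rpsa went from 291 to 186 FPKM. The summed level was 11749 to 12376 FPKM with DMSO and 15164 to 15914 FPKM with BMH-21 for these ribosomal proteins, and 1247 to 1287 and 1076 to 1136 FPKM for the 40 members. With median-ratio scaling the log2 ratio of the summed member level turned from −0.19 to 0.09, and without Nhp2 it was −0.35 on the deposited scale. Single values of ribosomal protein genes are uncertain where near-identical pseudogenes share their reads.

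**Figure D5:**
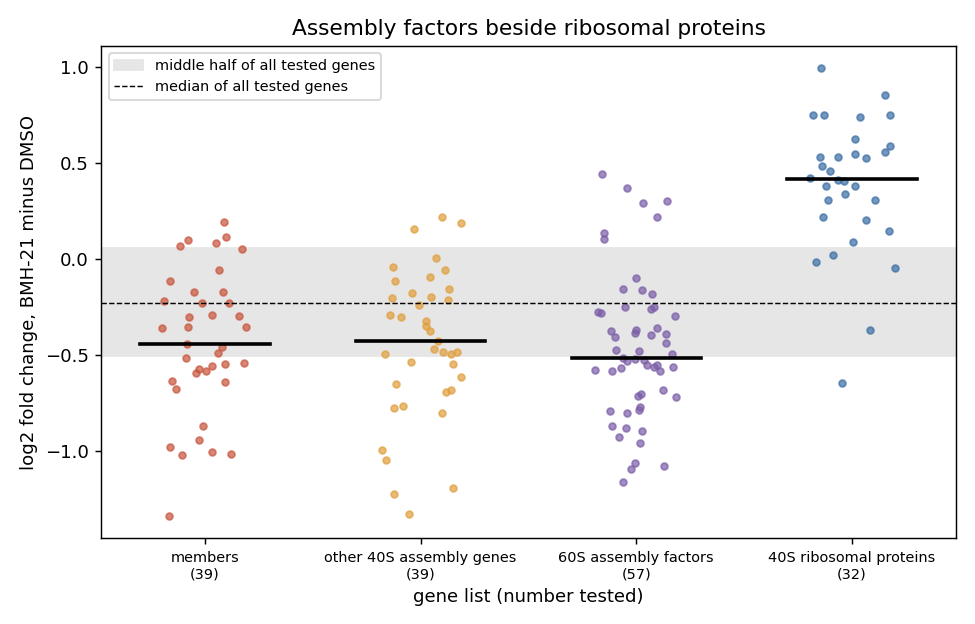
Log2 fold change (y axis) of each tested gene in 4 lists (x axis), with a bar at each list's median and the grey band covering the middle 50% of all tested genes. Members and both other assembly lists have medians of −0.44, −0.43 and −0.52, and 40S ribosomal proteins one of 0.42.

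Coding length went with the change among members in the same direction as among all genes. The 8 members with coding lengths under 1000 bases (Fbl, Nhp2, Gar1, Nop10, Imp3, Imp4, Rrp36 and Pno1) had a median of −0.0048, and 3 were called lower. The 14 members of 1000 to 2000 bases had a median of −0.56, with 13 called lower, and the 17 longer ones a median of −0.49, with 15 called lower. Over all tested genes the medians of these classes were −0.05, −0.31 and −0.32, and 42.1%, 66.9% and 71.5% were called lower. Across genes, which are not independent replicates, Spearman's rho between coding length and log2 fold change was −0.18 over 39 members and −0.28 over 9207 genes, which share libraries and length scaling. DMSO level had a rho of 0.03 with the change over the members. Whether length plays a part in the difference between members was not tested.

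Gene structure bears on what was counted. By the GENCODE M21 annotation (GRCm38, which mm10 also names), 5 members carry 15 annotated snoRNA genes on the same strand: Nop56 holds 5, Nop58 4, Wdr43 3, Tsr1 2 and Dkc1 1. All 5 hosts were called lower on the deposited scale, as were 58.4% of all tested genes, and Tsr1 turned to 0.01 with median-ratio scaling. Oligo-dT libraries do not capture mature snoRNAs well, and none is reported here. The exons of 15 members overlap those of a gene on the opposite strand, for 10 of them a protein-coding gene, such as Idh3b beside Nop56, Rmnd5b beside Nhp2, Parp3 beside Rrp9 and Wdr92 beside Pno1. Whether reads from the overlapping stretches were told apart is not known, because the labels do not say that strand was kept.

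Promoters of 33 members were found in the RefSeq table (GRCm38.p6), and 7 members (Dcaf13, Fbl, Nol6, Rrp12, Tbl3, Tcof1 and Utp6) had no entry. The 250 bases before the start were searched on both strands for the E-box CACGTG bound by MYC, CCAAT, the ETS-factor core CCGGAA and the GC box GGGCGG, none of which contains another. CACGTG was found in 3 members, Imp4, Nol11 and Utp18, or 9.09%, against 9.11% of 7703 promoters of tested genes and 6.04% of all 27025. The median change was −0.36 in those 3 and −0.36 in the 29 tested members without it. CCGGAA was found in 16 members, or 48.5%, against 25.4% of tested genes and 12.2% of all promoters, and 1 of its 26 matches overlapped a match of another motif. Members with CCGGAA had a median change of −0.36 and those without it −0.54. CCAAT was present in 48.5% of members and 37.4% of tested genes, with member medians of −0.29 with it and −0.51 without. GGGCGG was present in 57.6% and 61.5%, with member medians of −0.53 with it and −0.20 without, the widest split of the 4 motifs. Over all tested genes the medians with and without each motif lay between −0.26 and −0.22. A match is a description of letters, not a site shown to be used. The sequences below show the motif whose share differed most: Utp3, the largest fall, with 4 matches, Gar1, whose 2 matches overlap on opposite strands, Pwp2, with 1 match and no call, and Pno1, the member called higher, with none. They run 5′ to 3′ up to the last base before the start, 250 bases for Utp3 and 150 for the others, with CCGGAA or its reverse complement in capitals.
Utp3 (chr5:88554212-88554461, plus strand): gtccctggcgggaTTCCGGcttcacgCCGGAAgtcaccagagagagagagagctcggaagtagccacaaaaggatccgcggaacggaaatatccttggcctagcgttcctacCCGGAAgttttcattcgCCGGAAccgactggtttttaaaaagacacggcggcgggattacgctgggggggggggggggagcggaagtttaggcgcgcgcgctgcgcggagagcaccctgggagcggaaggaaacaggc
Gar1 (chr3:129831397-129831546, minus strand): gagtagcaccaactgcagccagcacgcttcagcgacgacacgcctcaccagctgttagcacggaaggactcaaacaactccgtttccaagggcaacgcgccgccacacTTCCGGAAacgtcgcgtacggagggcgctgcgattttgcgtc
Pwp2 (chr10:78185150-78185299, minus strand): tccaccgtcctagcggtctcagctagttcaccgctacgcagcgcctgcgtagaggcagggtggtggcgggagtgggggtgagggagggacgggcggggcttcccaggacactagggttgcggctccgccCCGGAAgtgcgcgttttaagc
Pno1 (chr11:17211590-17211739, minus strand): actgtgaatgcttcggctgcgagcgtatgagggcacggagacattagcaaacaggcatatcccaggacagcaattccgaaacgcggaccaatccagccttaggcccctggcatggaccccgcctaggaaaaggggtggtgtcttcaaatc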

How the data were processed

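The table deposited by the authors holds 1 value per gene and library, taken here as FPKM from its values and layout. Trimming with Trimmomatic 0.38, alignment with HISAT2, SAMtools and the mm10 build are named per the submitters' processing notes. The counter, its strand setting and the normalization are not stated. Since FPKM is a relative measure, the amount of RNA per cell is unknown. The steps between low values gave an estimated depth of 18770000 to 24070000 reads per library. Of low genes with a single transcript, 77.5% to 78.8% came within 0.01 of a whole number of reads, which is too few to recover counts. Between libraries, correlations over genes ran from 0.9970 to 0.9978 inside a group and from 0.9627 to 0.9640 across groups. DMSO replicate 2 is labelled as polyadenylated RNA and the other 5 libraries as total RNA, although one oligo-dT kit is described for all.

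Tested genes reached 1 FPKM or more in 3 or more libraries, which 9748 genes (50.7%) did. Their log2(FPKM + 1) values were compared in limma 3.58.1 under R 4.3.3 with an intensity trend, and Benjamini-Hochberg adjustment ran over all of them at 0.05. Only the limma fit, not the other steps, was first run on simulated data. Sums and within-complex ratios were compared by exact two-sided permutation of libraries. Nothing in the labels says that replicates were grown separately, so each p reflects only the variation among these libraries, possibly technical. Members, lists and tests were chosen with earlier results of these data known. Every member is named, and from each other list at most the 4 genes of smallest p in each direction. Alternatives covered the pseudocount, the filter, the scaling, each left-out library, a replicate block and DMSO replicate 3 alone.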

Additional observations from a re-analysis of the deposited data

How the results depend on the processing

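With single libraries left out, 30 to 31 members were called lower, 1 to 3 higher, and the member median lay between −0.47 and −0.37. Among all tested genes, 55.9% to 57.4% were called lower and 18.6% to 19.2% higher in those runs. The 3 higher calls came without DMSO replicate 1 (Pno1, Rrp9 and Nhp2). Median-ratio scaling gave 19 lower, 8 higher and a median of −0.17, beside 36.4% lower and 37.4% higher among all tested genes. Quantile normalization gave 21 lower, 6 higher and −0.20, beside 35.9% and 36.1%. Column totals made equal gave 33 lower, 0 higher and −0.56, beside 67.9% and 14.2%. With DMSO replicate 3 alone the member median was −0.43. Median-ratio scaling turned fold changes to 0.10 for Imp3, 0.21 for Imp4, 0.0011 for Nat10, 0.042 for Rcl1, 0.0095 for Tsr1 and 0.055 for Heatr1. With quantile normalization they turned to 0.010 for Utp15, 0.14 for Heatr1, 0.012 for Wdr75 and 0.12 for Imp4. They also turned there to 0.093 for Nat10, 0.026 for Rrp12, 0.087 for Tsr1 and −0.065 for Nhp2. Column totals made equal turned them to −0.037 for Rrp9, −0.0085 for Nhp2, −0.070 for Nop10 and −0.051 for Rrp36. Log2 ratios of sums turned with median-ratio scaling to 0.10 for the MPP10 complex, 0.13 for pre-40S factors and 0.091 for all members. That of the H/ACA proteins, 0.0084 as deposited, was −0.11 with column totals made equal and −0.027 to 0.045 with 1 library left out. The Nop10 ratio difference of 0.05 ranged from −0.045 to 0.12 with 1 library left out. The cause of these turns was not tested, beyond the shift of all genes that each scaling makes.

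The replicate block gave 31 lower and 1 higher member, beside 57.5% lower and 19.4% higher among all tested genes (7502 calls). Deviations of same-numbered libraries correlated at −0.11, −0.09 and −0.06, and those of differently numbered libraries at 0.0046 to 0.097. Deviations from a group mean are tied to each other, so these values cannot show whether the numbers mark pairs. The block is therefore not read as a paired analysis. Standard errors were widest for Nop10, Gar1 and Utp6 (0.08, 0.07 and 0.07), which are not the members with fewest reads. Single libraries were not tested as outliers within groups of 3.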
